A study of Macaca fascicularis with 64 samples.

Results

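Cytosolic ribosomal protein genes were followed across tissue, fetal stage and SIRT6 genotype in cynomolgus monkeys (Macaca fascicularis). The members were all rows named RPL or RPS plus a number, with an optional A, X or L, together with RPLP0, RPLP1, RPLP2 and RPSA. This gave 78 of the 28141 genes listed in each of the 2 deposited expression tables, 31 of the small subunit and 47 of the large subunit. Newborn tissues came from the SIRT6 knockout (KO) animals KO2 and KO3, labelled SIRT6 mutant, and from the wild-type (WT) animals WT2 and WT3. Heart, muscle, liver, kidney, lung, brain and thymus were sampled from each animal, with 2 repeat libraries per animal and tissue (56 libraries in all). Fetal brain and fetal muscle were wild-type, at gestation month 4 and at gestation month 2, with 2 libraries per month and tissue (8 libraries). The labels give neither the kind of SIRT6 mutation, nor whether the 2 fetal libraries of a group came from separate fetuses. The spread behind a fetal p-value is thus that of libraries and may be technical.

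The cytosolic ribosome is built from a small (40S) subunit, which binds and decodes the mRNA, and a large (60S) subunit, which joins amino acids. Each carries its own set of proteins, which are made in near-equal amounts in growing cells. Their mRNAs share a 5′ terminal oligopyrimidine (TOP) tract, through which mTOR and LARP1 control their translation, and so do the mRNAs of several translation factors. A few members have paralogs with restricted tissue patterns: RPL3L, for example, is known from striated muscle of mice and humans. SIRT6 is a chromatin-bound deacetylase.

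The values are FPKM, fragments scaled by transcript length and by the number mapped, so each is relative to the rest of its library. Sequencing depth is unknown, and the FPKM of all genes summed to between 311092 and 587030 per library. Marker genes of the labelled tissue were far above their level in the other tissues in every newborn animal. Their sums still ranged widely between animals, from 1213 to 18540 FPKM in lung and from 228 to 3180 FPKM in kidney. KO3 brain and KO2 muscle stood apart from the other animals. All 8 macrophage markers were under 1 FPKM in KO3 brain, where they summed to 1.57 FPKM, against 131 in KO2 brain and 175 and 176 in WT2 and WT3 brain. All 8 were likewise under 1 FPKM in KO2 muscle, where they summed to 2.08 FPKM, against 33 in KO3, 78.9 in WT2 and 44.7 in WT3. Brain markers summed to 203.9 FPKM in KO3 muscle, the highest outside brain. SIRT6 itself was listed at 3.07 to 12.4 FPKM in KO tissues and at 6.18 to 12.5 FPKM in WT tissues. Its log2 change averaged over 7 tissues was -0.20 (limma, adjusted p = 0.825), so its level does not check the genotype labels.

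Of the 78 members, 75 reached a mean of 1 FPKM in the newborn tissues and 76 in the fetal tissues. The 5 with the highest newborn levels were RPS27, RPL41, RPS21, RPL37A and RPS28, all small proteins. RPS27 had a median of 6024 FPKM over the 56 libraries, ranging from 1594 to 15984 FPKM. The 5 lowest were RPL10L, RPL8, RPL39L, RPL3L and RPS27L. RPL8, a large-subunit protein near the peptidyl transferase centre, was listed at 0 in 38 of the 56 newborn libraries and never exceeded 0.735 FPKM. RPL10L and RPL39L, paralogs known from the testis of mice and humans, were listed at 0 in 46 and 8 newborn libraries, with highest values of 1.05 and 2.84 FPKM. RPL3L was listed at 0 in 22 newborn libraries. Mammalian genomes hold many processed pseudogenes of these genes, and no source used here says how reads with several matches were counted, so the level of a single member is uncertain. A further 3 ribosomal protein genes, RPL17, RPS15 and RPL36A, appear under LOC identifiers and so fell outside the name rule.

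The members together took a large part of all FPKM. In thymus they made up 36.3% in KO2 and 33.6% in KO3, against 31.2% in WT2 and 31.7% in WT3. Brain had 25.6% in KO2 and 16.1% in KO3, against 12.8% in WT2 and 11.2% in WT3. In liver the share was 17.6% in each KO animal, against 11.9% and 11.54% in the WT animals. The thymus share was the highest of the 7 tissues in every animal, while the lowest was that of liver in KO2 and WT2 and that of brain in KO3 and WT3. Muscle had 25.2% and 24.7% in KO2 and KO3, against 18.7% and 16.1% in WT2 and WT3. Heart had 21.8% and 29.8% in the KO animals, against 15.7% and 18.1% in the WT animals. Kidney had 20.1% and 25.6% in KO, against 18.9% and 16.3% in WT. Both KO animals lay above both WT animals in these 6 tissues. In lung the KO values of 20.1% and 26.0% overlapped the WT values of 22.4% and 19.5%. Fetal muscle held 13.99% and 12.9% in its month 4 libraries, against 28.5% and 28.8% at month 2. Fetal brain held 10.9% and 13.4% at month 4, against 15.2% and 12.5% at month 2, and these overlapped. With 2 values against 2, an exact permutation test cannot give a p under 0.33, so no p is given for a share. The summed FPKM of small-subunit members divided by that of large-subunit members stayed between 0.878 in WT3 brain and 1.15 in KO2 lung.

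**Figure D1:**
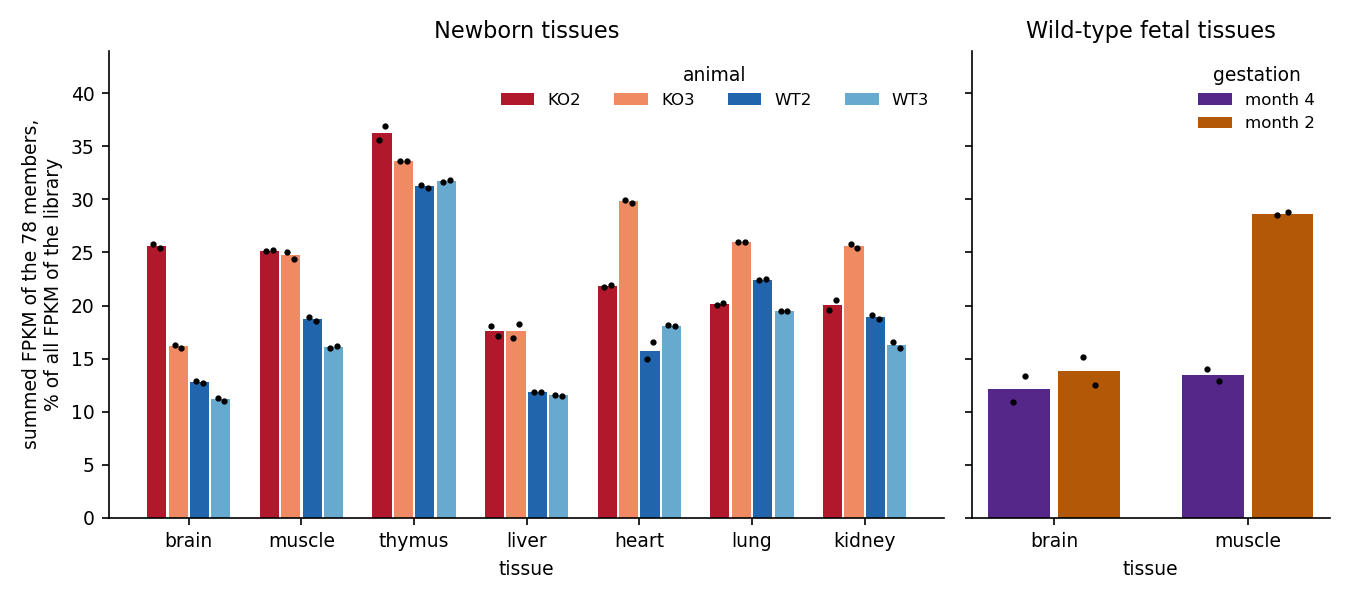
Share of all FPKM (percent, y axis) held by the 78 members in each newborn tissue of KO2, KO3, WT2 and WT3 and in fetal muscle and brain at month 4 and month 2. Bars are the mean of 2 libraries and dots the single libraries; thymus bars are the tallest, and the fetal muscle bar at month 4 stands well below that at month 2.

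The members moved together across animals and tissues. Over the 28 newborn means (4 animals, 7 tissues), the log2(FPKM + 1) level of a member had a median Pearson r of 0.90 with the median of the other members, for the 75 members at 1 FPKM or more. In all, 39 members had an r over 0.9 and 7 of the 78 had one under 0.5. RPL30 followed the others most closely (r = 0.977), then RPS4X, the X-linked form of a small-subunit protein (0.973), RPL10, near the tRNA binding sites (0.967), and RPL23A, at the exit of the nascent chain (0.964). The 28 points share animals, and all genes of a library share its total, so these values are a description. With tissue means removed the median r was 0.91. After quantile normalisation, which gives every library the same distribution of values, the median r was 0.80 and 8 members were over 0.9.

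A few members departed from the rest. The 4 lowest correlations were those of RPL10L (-0.265), RPL39L (-0.005), RPL8 (0.135) and RPL3L (0.226), all members at low or near-zero levels in most tissues. Next came RPS2 (0.327), which contacts the mRNA entry channel, RPL3 (0.422), and RPS27L (0.428), a p53-induced paralog of RPS27 in human cells. RPL38 had an r of 0.599 and RPL39 one of 0.613, while RPL37 had 0.799. With tissue means removed, r was 0.793 for RPS2, 0.753 for RPL3, 0.882 for RPL38, 0.774 for RPL39 and 0.869 for RPL37, but 0.295 for RPS27L. For the 4 lowest it was 0.175 for RPL10L, -0.048 for RPL39L, -0.068 for RPL8 and 0.337 for RPL3L.

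Among 9135 genes outside the list with a mean of 5 FPKM or more, the one most like the member median was GNB2L1, which encodes RACK1, a protein bound to the small subunit (r = 0.963, 28 means). RPL17 ranked 6 with an r of 0.916, and the other 8 of the 10 most like genes have only LOC identifiers. RPS15 (0.814) and RPL36A (0.745) lay lower. FAU, which encodes a ribosomal protein fused to a ubiquitin-like domain, had an r of 0.769. Among further TOP mRNAs, TPT1 had 0.755 and the elongation factor gene EEF1A1 0.692, but EEF2 only 0.194. MYC, a regulator of ribosome synthesis, had an r of 0.208, and LARP1 one of -0.387. Nucleolar protein genes differed, with 0.730 for FBL, 0.687 for NPM1 and -0.132 for NCL.

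Thymus had the highest member median in KO2, WT2 and WT3, while in KO3 heart (1783 FPKM) lay just above thymus (1745 FPKM). Against the mean of the other 6 tissues, 36 of 75 tested members (48.0%) were higher in KO thymus, where 15.4% of all genes were, and 1 was lower, where 20.9% of all genes were. In WT thymus 61 of 75 (81.3%) were higher, against 23.2% of all genes, and 1 was lower, against 28.1%. The median log2 difference of the members was 0.61 in KO and 0.94 in WT thymus, against -0.08 in KO and -0.05 in WT for all genes. In KO the largest were RPL28 (1.27), RPS15A (1.23) and RPS26 (1.18). In WT they were RPS3A (1.58, SE 0.25, limma adjusted p = 4.82e-05), RPL34 (1.45) and RPS15A (1.43). The member that was lower was RPL3L, with a log2 difference of -2.15 in KO and -2.50 in WT. RPL3L did not exceed 1.15 FPKM outside newborn muscle and heart, so this reflects those 2 tissues in the mean of the other 6. In WT thymus 27 of 31 small-subunit and 34 of 44 large-subunit members tested were higher. The WT thymus count fell to 20 without WT2 and 0 without WT3, and the KO thymus count to 14 without either WT animal, whose values enter the same fit. Thymus is rich in dividing lymphocytes, and a bulk sample cannot tell more cells of a type from more RNA per cell.

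In brain many members were lower than elsewhere, but in KO this came from KO3, while KO2 brain lay mid-range among its tissues. In KO brain 30 of 75 (40%) were lower than in the other 6 tissues, where 20.3% of all genes were, and 2 were higher, against 22% of all genes. In WT brain 63 of 75 (84.0%) were lower, against 23.9% of all genes, and 0 were higher, against 24.8%. The median log2 difference was -0.55 in KO brain and -1.03 in WT brain, against -0.07 in KO and -0.06 in WT for all genes. RPS27L and its partner RPS27 were the lowest after RPL3L. RPS27L was at -1.54 in KO and -2.28 in WT (SE 0.33 each), and RPS27 at -1.25 in KO and -1.64 in WT. The 2 members higher in KO brain were RPS2 (0.86) and RPL32 (0.64), and both calls were lost without KO2, that of RPL32 also without either WT animal. The count of members lower in KO brain was 61 without KO2, 1 without KO3 and 14 without either WT animal. In WT brain it was 15 without WT2 and 10 without WT3. KO2 and KO3 differed, with a member median of 1072 FPKM in KO2 brain, above its liver, lung and kidney, and of 591 FPKM in KO3 brain, its lowest tissue.

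In muscle a few members were higher than in the other tissues and RPL3 was lower. In KO muscle 10 of 75 (13.3%) were higher, against 8.24% of all genes, and 1 was lower, against 15.1%. In WT muscle 15 of 75 (20.0%) were higher, against 9.69% of all genes, and 1 was lower, against 28.1%. RPL3L led in both, at 6.88 in KO and 7.35 in WT, followed by RPL39, which lines the exit tunnel, at 1.15 in KO and 1.26 in WT. RPL37, a zinc-binding large-subunit protein, was at 0.74 in KO and 1.10 in WT, but its KO call was lost without any 1 of the 4 animals. RPL29 (0.90) came next in KO and RPS29 (1.20) in WT. The member that was lower was RPL3, at -1.17 in KO and in WT, and its WT call was lost without WT3. Without either WT animal, 2 members were higher in KO muscle, and 1 was higher in WT muscle.

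The other 4 tissues held fewer calls. In KO heart 13 of 75 (17.3%) were higher, against 11% of all genes, and 0 lower, against 16.2%. They were led by RPL3L (5.39), RPS2 (1.11) and the stalk protein gene RPLP1 (0.97). In WT heart 1 was higher, against 9.11% of all genes, and 1 lower, against 17.1%. These were RPL3L (5.13) and RPL3 (-0.81). In KO liver 0 were higher, against 9.33%, and 14 of 75 (18.7%) lower, against 31.4%. In WT liver 0 were higher, against 10.6%, and 10 of 75 (13.3%) lower, against 32.1%. The liver counts lay below the share of all genes called. RPL38 was lower in liver in both genotypes, at -0.96 in KO and -1.03 in WT. RPSA, which doubles as a laminin receptor, was also lower in both, at -0.60 in KO and -0.81 in WT. In KO lung 0 were higher, against 12.2%, and RPL3L (-2.71), RPL39 (-1.01) and RPS2 (-0.93) were lower, against 11.2% of all genes. In WT lung 0 were higher, against 14.6%, and RPL3L alone (-2.55) lower, against 12.6%. KO kidney had 0 higher, against 19.7%, and 12 of 75 (16%) lower, against 6.16%, led by RPL3L (-2.66), RPL38 (-0.87) and RPL35 (-0.84). WT kidney had RPL3 (0.64) and RPS27L (1.07) higher, against 18.2% of all genes, and RPL3L (-2.43) lower, against 7.47%. The lower RPL3L values in lung and kidney again reflect its level in muscle and heart. Without WT2 or without WT3, 1 member was called in each of these 4 WT tissues. With the animal as a block, which pairs its tissues, 23 members were called in KO heart and 2 in WT lung. KO heart had 25 higher without KO2, 8 without KO3 and 4 without either WT animal. KO kidney had 1 lower without KO2, 24 without KO3 and 2 without either WT animal. Without either WT animal KO liver had 3 lower, while KO lung had 10 lower without KO3 and 1 without either WT animal.

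The direction of the member median in muscle, heart, lung, liver and kidney depended on how libraries were scaled, while thymus stayed higher and brain lower under each scaling. As first computed, the KO and WT medians were 0.22 and 0.25 in muscle, 0.47 and -0.11 in heart, -0.36 and -0.36 in liver, -0.19 and 0.20 in lung, and -0.35 and -0.02 in kidney. With quantile normalisation the median log2 difference was 0.37 in KO and 0.78 in WT thymus and -0.21 in KO and -0.42 in WT brain. It turned negative in muscle (-0.08 in KO, -0.23 in WT) and in KO heart (-0.17), and positive in KO lung (0.13) and in kidney (0.25 in KO, 0.24 in WT). Upper-quartile scaling turned WT heart positive (0.17) and KO liver to 0.01. Those 2 scalings moved the median of all genes by -0.41 to 0.30 on the log2 scale.

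RPL3 and RPL3L, alternative forms of the same large-subunit protein, ran opposite in muscle and in WT heart against the other tissues. In KO heart RPL3 was not called lower. RPL3L was at 288 and 337 FPKM in KO2 and KO3 muscle, against 330 and 385 FPKM in WT2 and WT3. In heart it was at 125 and 131 FPKM in the KO animals, against 94.0 and 95.3 FPKM in the WT animals. Elsewhere it did not exceed 1.15 FPKM. RPL3 was at 356 and 258 FPKM in KO muscle, against 365 and 200.5 FPKM in WT muscle, its lowest tissue in each animal except WT2, whose heart was at 328 FPKM. In heart it was at 524 and 527 FPKM in KO, against 328 and 340 FPKM in WT. RPL3L thus made up 44.7% and 56.6% of the summed FPKM of the pair in KO muscle, against 47.4% and 65.8% in WT muscle. In heart its share was 19.2% and 19.9% in KO and 22.3% and 21.9% in WT. The KO and WT values overlapped in muscle. In heart both RPL3L levels were higher in KO than in WT, but so was RPL3, and the RPL3L share was lower in both KO hearts.

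The pair also shifted with fetal stage. In fetal muscle RPL3L was at 103 and 200.5 FPKM at month 4, against 59.1 and 59.7 FPKM at month 2. RPL3 was at 396 and 334 FPKM at month 4, against 928 and 937 FPKM at month 2. RPL3L held 20.6% and 37.5% of the pair at month 4, against 5.99% in each month 2 library. In fetal brain RPL3L did not exceed 0.379 FPKM in any library.

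**Figure D2:**
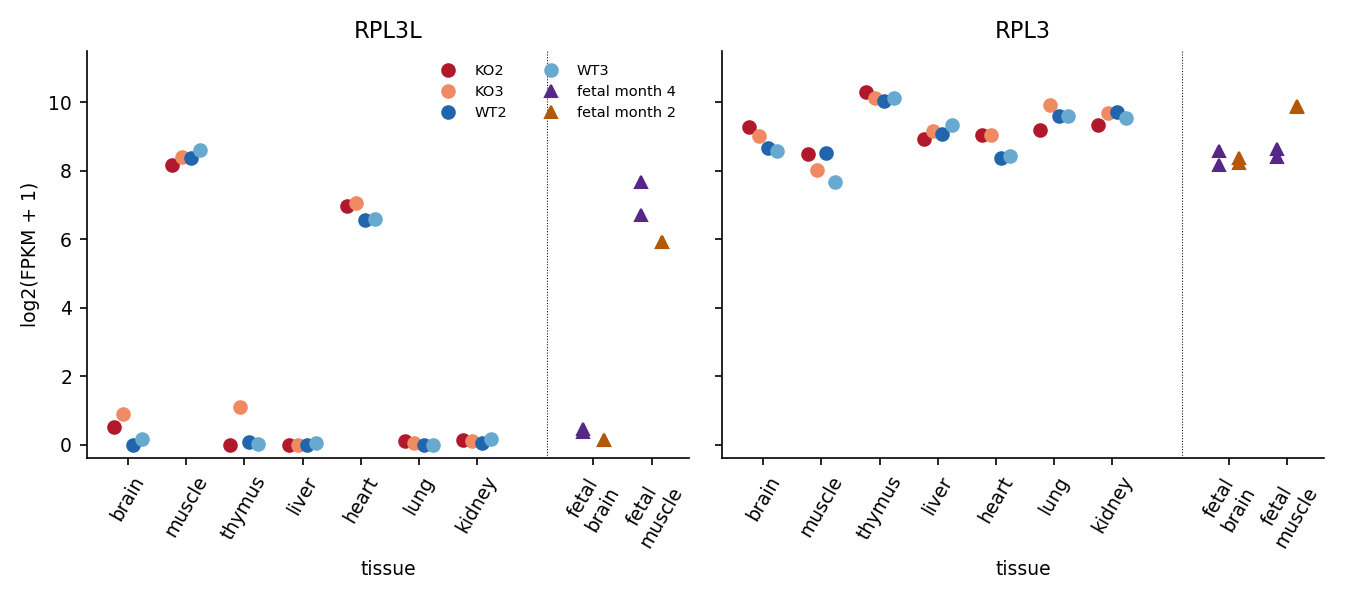
Level of RPL3L and of RPL3, as log2(FPKM + 1) on the y axis, for each newborn tissue by animal (KO2, KO3, WT2, WT3) and for fetal muscle and brain libraries (triangles, month 4 left of month 2). RPL3L is high in muscle and heart only among the tissues sampled, and RPL3 is lower in month 4 than in month 2 fetal muscle.

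Most other paralogs stayed minor, apart from RPL22L1 and RPL36AL, which lie outside the name rule. RPL36AL had a newborn mean of 288 FPKM, against 379 FPKM for RPL36A. RPL22L1 took 11.6% to 44.9% of the summed FPKM of RPL22 and RPL22L1 over the newborn animals and tissues. It was lower in brain than in other tissues (-1.78 in KO, adjusted p = 0.006; -2.39 in WT, limma adjusted p = 0.000406), and higher in WT thymus (1.79, adjusted p = 0.00495). RPS27L took at most 2.09% of its pair with RPS27, RPL10L at most 0.0663% of its pair with RPL10, and RPL39L at most 0.506% of its pair with RPL39. In newborn tissues RPL26L1 took at most 9.78% of its pair with RPL26, and RPL7L1 at most 4.25% of its pair with RPL7. In fetal brain at month 2 RPL39L held 4.33% and 7.02%, where RPL39 was low. Against the mean of the other 6 tissues RPL26L1 was lower in thymus (-0.78 in KO, -0.92 in WT) and in KO liver (-1.02), and higher in KO heart (1.12) and KO brain (0.96).

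KO tissues tended to have higher member levels than WT tissues, with the widest gaps in heart and brain, but almost no single member passed the test. Averaged over 7 tissues, the median log2 change of the members was 0.46, against -0.11 for all genes, and 74 of 75 were positive. RPS26 was the 1 member called (1.33% of 75), against 0.253% of all genes called higher. Both KO animals lay above both WT animals for 64 of 75 members in the 7-tissue mean, against 15.7% of all genes. Without KO3 the 7-tissue count was 8.

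The size of the gap differed between tissues and between the KO animals. In heart the member median was 1226 and 1783 FPKM in KO2 and KO3, against 735 and 732 FPKM in WT2 and WT3. The median log2 change was 1.0, against -0.06 for all genes, and all 75 members were positive. Both KO hearts were above both WT hearts for 73 of 75 members, against 19.3% of all genes. Even so, 0 members passed (0.18% of all genes did in heart, by limma), while 62 had an unadjusted p under 0.05. The share of all genes at an unadjusted p under 0.05 is not given, here or below, so such counts are descriptions only. Among those not passing, RPS19, a gene mutated in Diamond-Blackfan anaemia, was at 1.33 (adjusted p = 0.128). Heart macrophage markers summed to 14.1 and 38.5 FPKM in KO, against 147 and 88.3 FPKM in WT. Red-cell markers summed to 943 and 249 FPKM in KO hearts, against 3535 and 5494 FPKM in WT hearts. By log2 change, though, 7 of the 8 red-cell markers tested were higher in KO hearts, with a median of 0.70. By limma 1 of the 8 passed as higher and 1 as lower. The part of these cells in the result was not tested.

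In brain the member median was 1072 and 591 FPKM in KO2 and KO3, against 456 and 401 FPKM in WT2 and WT3. The median log2 change was 0.90, against -0.20 for all genes, with 74 of 75 positive and both KO animals above both WT animals for 70, against 15.3% of all genes. By limma 0 members passed (0% of all genes did), and 14 had an unadjusted p under 0.05. RPS26 (1.33), RPS2 (1.26) and RPL32 (1.34) had the smallest p (adjusted p = 0.388 each). The gap was larger in KO2 than in KO3. The median difference from the WT mean was 1.31 in KO2 brain and 0.45 in KO3 brain. Markers also differed in KO brain. All 4 muscle markers were positive, with a median log2 change of 3.24, and 1 of 4 brain markers was positive (median -0.90). Of 8 macrophage markers 1 was positive (median -1.89), and all 8 were under 1 FPKM in KO3 brain. By limma 0 of these markers passed, and their part in the member result was not tested.

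Liver, muscle and thymus showed smaller medians. In liver the median log2 change was 0.45, against -0.19 for all genes, and both KO animals were above both WT animals for 55 of 75, against 15.8%. By limma 0 passed in liver (1.1% of all genes did, 5 members at an unadjusted p under 0.05), where RPS3, at the mRNA entry of the small subunit, had the smallest p (1.15, adjusted p = 0.138). In KO liver 10 of 10 cycling-cell markers were positive (median 1.20), as were 7 of 8 red-cell markers (median 2.12). Of 8 macrophage markers 0 were positive there (median -2.96). The part of these cells in the member result was not tested. In muscle the median log2 change of the members was 0.34, against -0.00 for all genes. Both KO animals were above both WT animals for 44 of 75, against 21.6%, and RPS26 alone passed, against 0.745% of all genes called higher. In thymus the median was 0.19, against -0.21, and 31 of 75 were above in both KO animals, against 14.4%. By limma 0 passed in thymus (0.00772% of all genes did, 1 member at an unadjusted p under 0.05), and 3 passed without WT3. With quantile normalisation the thymus median turned to -0.10, and relative to the median of all genes to -0.05.

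Lung and kidney showed the least. In lung the median was 0.08, against -0.17 for all genes, and in kidney 0.15, against -0.04. Both KO animals were above both WT animals for 11 of 74 members in lung, against 11.3% of all genes, and for 12 of 74 in kidney, against 22.9%. By limma 0 members passed in lung (0% of all genes, 0 members at an unadjusted p under 0.05) and 0 in kidney (5.78% of all genes, 1 member higher and 1 lower at an unadjusted p under 0.05). In kidney RPS27L was lower in KO, at 42.7 and 59.2 FPKM in KO2 and KO3, against 93.0 and 100.7 FPKM in WT2 and WT3. The log2 change of -0.93 (SE 0.29) did not pass (limma adjusted p = 0.102), though the groups did not overlap. It passed without KO3, when 1 member was called in kidney, and 1 was called without KO2. The lung median was -0.21 without KO3. In KO lung 0 of 3 lung markers were positive (median log2 change -2.94). In KO kidney 1 of 4 kidney markers was positive (median -1.84), and 2 passed as lower by limma. The part of these markers' cells in the member result was not tested.

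**Figure D3:**
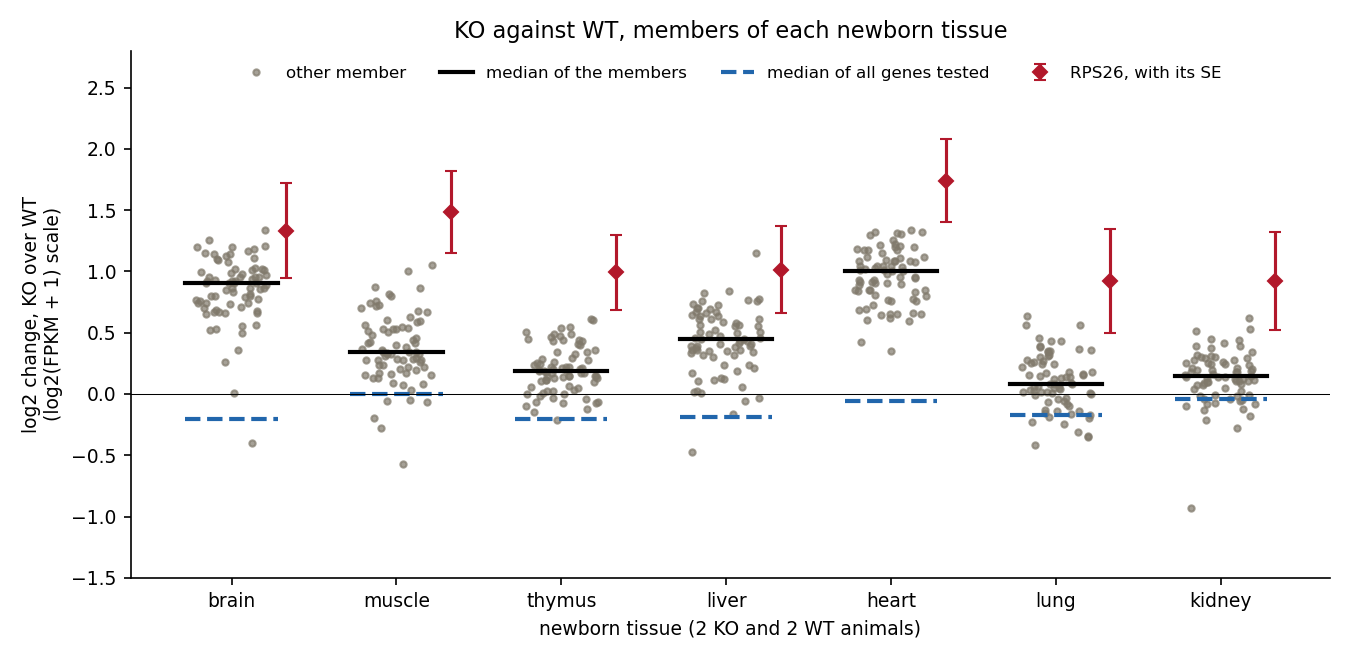
KO over WT log2 change (y axis) of each tested member (points) in the 7 newborn tissues, with RPS26 as diamonds with its SE, the member median as a black line and the median of all genes as a dashed blue line. Members of heart and brain lie almost wholly above 0, and RPS26 lies above the member median in each tissue.

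RPS26, at the mRNA exit channel of the small subunit and another Diamond-Blackfan anaemia gene, had the largest change among the members in muscle and in the 7-tissue mean. In muscle it was at 1987 and 2058 FPKM in KO2 and KO3, against 842 and 618 FPKM in WT2 and WT3. In heart it was at 1792 and 2840 FPKM in KO, against 608 and 757 FPKM in WT. Both KO animals exceeded both WT animals by a wide margin in these 2 tissues. In brain it was at 1171 and 729.6 FPKM in KO, against 352 and 381 FPKM in WT. In thymus it was at 2994 and 4283 FPKM in KO, against 1543 and 2097 FPKM in WT. In liver it was at 1291 and 1665 FPKM in KO, against 614 and 854 FPKM in WT. The groups did not overlap in these tissues either. In lung it was at 1233 and 2063 FPKM in KO, against 859 and 828 FPKM in WT, and in kidney at 1122 and 2205 FPKM in KO, against 844 and 814 FPKM in WT. In all 7 tissues, then, both KO animals were above both WT animals. Within a single tissue 11.3% to 22.9% of all genes were so placed. The share of genes so placed in all 7 is not given, and RPS26 was singled out by its call in these data.

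The log2 change of RPS26 was 1.49 in muscle (SE 0.33, limma adjusted p = 0.0139) and 1.20 over 7 tissues (SE 0.19, adjusted p = 0.0168). In heart it was 1.74 (SE 0.34, adjusted p = 0.0665, and 0.0367 without WT3), and in the other 5 tissues between 0.92 and 1.33 without passing. In each KO animal and tissue the difference of RPS26 from the WT mean was 0.36 to 1.15 larger than the median difference of the members. The muscle call was lost without KO2 (adjusted p = 0.152), without KO3 (0.0978) and without WT3 (0.0989), and also with quantile normalisation (0.0917), upper-quartile scaling (0.143) and no level filter (0.436). The 7-tissue call held without each animal in turn (0.00487 to 0.0253), but was lost with quantile normalisation (0.148), upper-quartile scaling (0.0706) and no level filter (0.453). RPS26 has pseudogene copies in primate genomes, and the reading of its reads is uncertain as for the other members.

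Whether the KO change of a tissue differed from that of the animal's other 6 tissues was tested directly. By limma 0 members passed in any tissue. The share of all genes called was 0% in brain and muscle, 0.00665% in thymus and lung, 0.226% in liver, 0.186% in heart and 2.84% in kidney. The median difference was 0.62 in heart, with 75 of 75 positive and 21 members at an unadjusted p under 0.05, and 0.50 in brain, against 0.07 and -0.04 for all genes. It was -0.42 in lung, -0.37 in kidney and -0.31 in thymus, against -0.03, 0.08 and -0.02 for all genes. RPS27L in kidney came nearest (-0.92, adjusted p = 0.0747). Without KO2, which left KO3 as the only KO animal, the brain median was -0.09.

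Genes around the ribosome did not follow the members alike. Of 21 tested translation factors and other TOP mRNAs, 0 passed and all 21 were positive over 7 tissues, with a median log2 change of 0.44, close to the 0.46 of the members. NACA, which guards nascent chains, was at 0.72 (adjusted p = 0.203), GNB2L1 at 0.62 and TPT1 at 0.45. Of 39 ribosome biogenesis genes 0 passed and 9 were positive, with a median of -0.20. PNO1, a small-subunit assembly factor, was at -0.78, and UTP15 at -0.70. Of 27 genes of RNA polymerases I and III 0 passed, with a median of -0.08. Of 23 regulators of TOP mRNAs and of the ribosome 0 passed, with a median of -0.20, and EIF4EBP2 was at -0.78. Over the same 7 tissues 3 of 8 macrophage markers passed as lower in KO, with a median of -1.47. Of 8 red-cell markers 2 passed as higher and 1 as lower, and 7 were positive, with a median of 0.80. Their part in the member result was not tested.

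In fetal muscle nearly the whole set was lower at month 4 than at month 2. Of 75 tested members 67 (89.3%) were lower, against 15.7% of all genes, and 3 (4.0%) were higher, against 22.3%. The median log2 change was -1.36, against 0.16 for all genes. The lowest were RPL26 (-2.15, SE 0.19, limma adjusted p = 7.02e-05), RPL6 (-2.07) and RPS15A (-2.06). The lower members included 28 of 31 small-subunit and 39 of 44 large-subunit members, among them all 3 stalk genes RPLP0, RPLP1 and RPLP2. RPL21, RPS12, RPL10A, RPS27L and RPS27 did not pass, at -0.10 to -0.25. Of the members under LOC identifiers RPL17 was at -1.01, RPS15 at -1.41 and RPL36A at -2.29, and all 3 passed. The 3 members higher at month 4 were RPL37, RPL39 and RPL3L. Macrophage markers summed to 55.9 and 56.2 FPKM in month 4 fetal muscle, against 138 and 140 FPKM at month 2, and their part was not tested. Without month 2 library 1 the count passing was 38, and without month 2 library 2 it was 40. With no level filter, over all 28141 genes, 4 members passed, RPL37 and RPL39 higher and 2 lower, while 64 were lower at an unadjusted p under 0.05.

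Fetal brain did not share that fall. Of 75 members 2 (2.67%) were higher at month 4, against 3.28% of all genes, and 0 were lower, against 0.732%. The median log2 change was -0.10, against 0.065 for all genes, and the lowest, RPL9, was at -0.77 (adjusted p = 0.126). The 2 that were higher were again RPL37 and RPL39. Macrophage markers summed to 38.1 and 55.4 FPKM at month 4, against 15.7 and 9.59 FPKM at month 2, and their part was not tested. The member median was 0.15 without month 4 library 1 and -0.34 without month 4 library 2.

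RPL37 and RPL39 were higher at month 4 in both fetal tissues. In fetal brain RPL37 was at 158 and 224 FPKM at month 4, against 17.6 and 3.86 FPKM at month 2. In fetal muscle it was at 286 and 335 FPKM at month 4, against 50.6 and 41.0 FPKM at month 2. Every month 4 library was far above the month 2 libraries of its tissue. RPL39 was at 338 and 443.5 FPKM in fetal brain at month 4, against 37.3 and 22.6 FPKM at month 2. In fetal muscle it was at 472 and 575 FPKM at month 4, against 97.1 and 109.9 FPKM at month 2. The months did not overlap for either gene in either tissue.

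The log2 change of RPL37 was 4.31 in brain (SE 0.51, limma adjusted p = 0.00346), rank 2 of 13114 genes by size of rise. In muscle it was 2.74 (SE 0.19, adjusted p = 1.37e-05). That of RPL39 was 3.69 in brain (SE 0.29, adjusted p = 0.000629), rank 6, and 2.32 in muscle (SE 0.19, adjusted p = 3.56e-05). RPL3L rose by 1.26 in muscle (SE 0.27, adjusted p = 0.00582). The brain calls of RPL37 and RPL39 were lost without month 4 library 1 (adjusted p = 0.195 and 0.147) and without month 4 library 2 (0.264 and 0.147), and with no level filter (0.325 and 0.156). The RPL3L call in muscle was lost with no level filter (0.246). The log2 level of RPL37 lay 4.86 to 6.54 below the median of the other members at month 2, and 1.10 to 1.30 below it at month 4. In newborn tissues it lay 0.42 to 1.99 below. RPL39 lay 3.82 to 4.26 below at month 2, 0.21 to 0.56 below at month 4, and between 1.48 below and 0.56 above in newborn tissues.

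In newborn tissues both genes were expressed throughout, each highest in muscle in 3 of the 4 animals and in heart in KO3. RPL37 was at 732 and 700 FPKM in KO2 and KO3 muscle, against 684 and 589 FPKM in WT2 and WT3. In brain it was at 531 and 304 FPKM in KO, against 198 and 210 FPKM in WT. RPL39 was at 1133 and 1647 FPKM in KO muscle, against 1249 and 1128 FPKM in WT muscle. These RPL39 values overlapped between genotypes. In brain RPL39 was at 782 and 674 FPKM in KO, against 480 and 413 FPKM in WT. RPL37 and RPL39 passed no KO against WT test in any tissue. Fetal and newborn values stand in separate tables and were not tested against each other.

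**Figure D4:**
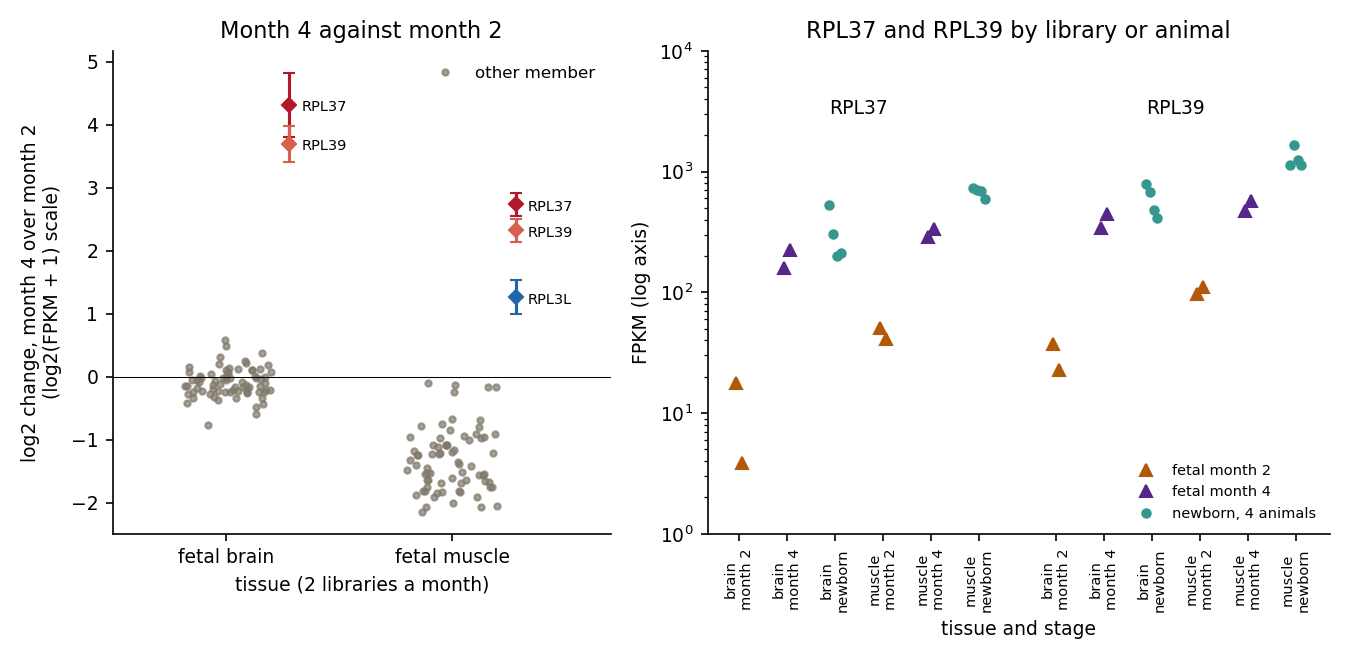
Left: month 4 over month 2 log2 change (y axis) of each tested member in fetal brain and fetal muscle, with RPL37, RPL39 and RPL3L labelled and drawn with their SE. Right: FPKM (log axis) of RPL37 and RPL39 in brain and muscle at month 2, month 4 and in newborns; the month 2 libraries lie lowest in each tissue.

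The month change differed between the 2 fetal tissues. In a fit of all 8 fetal libraries with a month by tissue term, added after seeing the data, 46 of 76 members (60.5%) had a lower change in muscle than in brain, against 7.39% of all genes, and 0 a higher one, against 6.61%. The median of the differences was -1.32, against 0.08 for all genes, led by RPL35 (-2.09), RPS20 (-1.97) and RPS18 (-1.97). For RPL39 the rise was smaller in muscle than in brain (-1.37, limma adjusted p = 0.0365). For RPL37 the difference was -1.58 (adjusted p = 0.142) and for RPL3L 0.98 (adjusted p = 0.109). The count rested on single libraries. It was 0 and 1 without month 2 muscle library 1 or 2, and 21 and 5 without month 2 brain library 1 or 2. It was 7 and 28 without month 4 muscle library 1 or 2, and 59 and 22 without month 4 brain library 1 or 2. The RPL39 call was lost in 5 of these 8 fits. The count was 14 with quantile normalisation and 0 with no level filter.

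Translation factors and other TOP mRNAs were also lower at month 4 in fetal muscle, while the other lists were mixed. For reading the counts, 15.7% of all genes were lower and 22.3% higher there, with a median of 0.16. Of 21 translation factors and other TOP mRNAs 12 were lower at month 4 and 0 higher, with a median of -0.64. FAU was at -1.76 (adjusted p = 0.000216), GNB2L1 at -1.67, NACA at -1.53 and EIF3F at -0.97. Of 38 ribosome biogenesis genes 12 were lower and 1 higher, with a median of -0.32. The lower ones included GAR1 (-1.17) and NOP58 (-0.99), both of small nucleolar RNA particles. Of 27 polymerase I and III genes 4 were lower and 0 higher, with a median of -0.04, close to the share of all genes called lower. Of 23 regulators 8 were higher and 3 lower, with a median of 0.30. MDM2, the p53 ligase that free ribosomal proteins bind, was at 1.74, and EIF4EBP1, a repressor of cap-dependent translation, at -1.11. Among 5 paralogs outside the rule RPL22L1 (-1.88, adjusted p = 0.000103) and RPL26L1 (-0.65, adjusted p = 0.0167) were lower. In fetal brain 0 genes of these 5 lists passed by limma.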

How the data were processed

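The 64 libraries were made from 1.5 µg of total RNA after TRIzol extraction, with the TruSeq RNA kit, and sequenced on an Illumina instrument, per the labels' protocols. The authors deposited FPKM per gene in one newborn and one fetal table. CASAVA, HISAT 0.1.6 and Cufflinks 2.0.2 are named, without roles, per the submitters' processing notes; genome build, annotation, strand and the handling of reads with several matches are named in no source used here. FPKM carries no depth, so no counting intervals are given. The titles' KO2, KO3, WT2 and WT3 were read as animals.

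From these values, the 2 repeat libraries of an animal and tissue were averaged, genes under a mean of 1 FPKM were left out of each fit, and log2(FPKM + 1) was tested with limma 3.58.1 (R 4.3.3, trend, two-sided, threshold 0.05, Benjamini-Hochberg over all genes tested). A fold change on this scale understates the change of low genes. KO was tested against WT within each tissue, in the mean of 7 tissues, and as each animal's difference of a tissue from its other 6. Each tissue was tested against the other 6 in 1 fit of 14 genotype and tissue groups. Month 4 was tested against month 2 in each fetal tissue. Tables were never tested against each other. The fit was tested on simulated data. The members and lists were chosen with earlier results of these data known.

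Named were RPL37, RPL39 and SIRT6, members past the threshold (all up to 6, otherwise the 3 highest and 3 lowest, or the 3 smallest p where none passed), the 5 highest and 5 lowest levels, the 4 highest and 4 lowest correlations, members listed at 0, paralog pairs, and up to 4 genes per other list; other names were chosen after their values were seen, and a few items are not reported here. Alternatives were pseudocount 0.1, no filter and a filter of 5 FPKM, quantile and upper-quartile scaling, single libraries with a correlation per animal, 1 fit of all tissues, a replicate block and leaving out each animal or fetal library. The labels pair the tissues of an animal with each other, and this pairing was used in the animal differences. Deviations of 1 animal's tissues from their group means correlated at 0.092 to 0.525 in KO and 0.171 to 0.475 in WT.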

Additional observations from a re-analysis of the deposited data

Results flagged for a closer look

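The change between the fetal months differed between the 2 fetal tissues for 46 of the 76 members tested, by the month by tissue term of the limma fit described above. Each had a lower change in muscle than in brain, against 7.39% of all genes. The term was added after seeing the data, and the count rested on single libraries and on the level filter.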

How the results depend on the processing

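With 2 animals or libraries per group and FPKM without depth, calls moved with single animals more than with any pseudocount. No direction of a result with a test was reversed, but member medians, which carry no test, changed sign in several comparisons above. Counts below are of members called. For these counts, and those of alternative fits above, the share of all genes called is not given, so they are descriptions only. For KO against WT, leaving out 1 animal gave 0 to 55 in brain, 0 to 1 in muscle, 0 to 3 in thymus, 0 to 1 in heart, 0 to 1 in kidney and 1 to 8 over 7 tissues. For the KO change of a tissue against the other tissues it gave 0 to 39 in brain and 0 to 2 in kidney. For KO tissues against the other tissues it gave 8 to 61 in brain, 3 to 10 in muscle, 15 to 34 in thymus, 3 to 18 in liver, 4 to 25 in heart, 1 to 10 in lung and 1 to 24 in kidney. For WT tissues it gave 10 to 68 in brain, 1 to 27 in muscle, 1 to 68 in thymus, 1 to 25 in liver, 1 to 7 in heart, 1 to 8 in lung and 1 to 5 in kidney. For month 4 against month 2 it gave 0 to 2 in fetal brain, 38 to 70 in fetal muscle, and 0 to 59 for the difference between the 2. A group left with 1 sample is assumed to vary like the others.

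Without a level filter the counts were 0 for KO against WT in muscle and over 7 tissues, 9 in KO liver, 8 in KO heart, 4 in KO kidney and 3 in WT liver against the other tissues, 0 in fetal brain, 4 in fetal muscle and 0 for the month difference between them. With pseudocount 0.1 they were 7 in KO kidney and 4 in WT liver. With quantile normalisation KO against WT gave 0 in muscle and over 7 tissues. The tissue contrasts then gave 28 in KO liver, 2 in KO heart, 45 in WT liver, 12 in WT heart, 25 in WT lung and 9 in WT kidney, and the month difference 14. With upper-quartile scaling KO against WT gave 0 in muscle and over 7 tissues. The tissue contrasts gave 17 in KO muscle, 1 in KO liver, 22 in KO heart, 5 in KO lung, 29 in KO kidney, 29 in WT muscle, 2 in WT liver, 2 in WT lung and 5 in WT kidney. Single libraries with a correlation per animal gave 1 in brain, 3 in muscle, 1 in liver, 1 in kidney and 9 over 7 tissues. A single fit of all tissues gave 3 in brain, 1 in liver and 4 in heart. WT animals alone gave 27 in muscle, 25 in liver, 7 in heart, 8 in lung and 5 in kidney.

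The animal as a replicate block gave 23 in KO heart and 2 in WT lung and moved no other tissue contrast count by over 1.5 times. KO and WT animals share only a number, with deviations correlated at -0.09 to 0.11, and that replicate block gave 15 for KO against WT in heart, with all other counts unchanged. In fetal brain same-numbered libraries correlated at -0.235, and crossing the numbers, chosen after seeing the data, left the count at 2. Of the single-gene and median values under all alternatives, 144 lost and 56 gained a call, and 44 without a test moved. The cause of these changes was not tested.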
